A study of Mus musculus with 12 samples.

Results

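Double knockout cells of the mouse line mIMCD3, in which Actr3 and Ift88 were both disrupted (dKO, 3 libraries), were compared with cells not given an inhibitor that carried the Actr3 knockout alone (line Actr3 KO-1, here Actr3 KO, 3 libraries), so that the difference in the labels was the added loss of Ift88. These 6 libraries are part of 12, and 13442 of the 27179 genes in the table reached a value of 10 in 3 or more of the 6 and were tested. The mIMCD3 line is an epithelial line from the deepest stretch of the mouse collecting duct, in the inner medulla. The cells were grown to confluence for 48 h with 10% fetal calf serum and starved of serum for another 24 h before polyadenylated RNA was sequenced. Both groups of the comparison carry the treatment label control, and the starvation medium held either solvent or 0.5 µM ciliobrevin D, which blocks the dynein motors. The other libraries were 3 of a line labelled wild type control and 3 of the Actr3 KO line given ciliobrevin D, and their levels are set beside those of the compared groups without a test. Actr3 KO and dKO were 1 line each, all groups but control carried the Actr3 knockout, and the labels do not state how the dKO line was derived. A line and its genotype therefore cannot be told apart. The labels give 1 control line, but 1 of the 3 control columns is headed as control line 2, replicate 1, which is the title of no sample, so it may come from another control line. Over the 230 named genes with a control mean of at least 10, the control mean without that column was 0.803 to 1.12 times the mean given.

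The primary cilium is a single microtubule-based projection through which kidney tubule cells sense flow and receive Hedgehog and other signals. It is built and kept by intraflagellar transport, in which kinesin-2 carries trains of proteins towards the tip and dynein-2 returns them. IFT88 is a core subunit of the anterograde train, and cells without it form short cilia or none, while mice with reduced Ift88 develop cystic kidneys. ACTR3 (ARP3) is 1 of the 2 actin-related subunits of the Arp2/3 complex, which starts branched actin filaments at the cell edge and on vesicles.

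The unit throughout is the normalized count, a read count divided by a size factor of its library and not corrected for gene length, so levels are compared between libraries and not between genes. Fold changes are differences of mean log2(value + 1), dKO minus Actr3 KO, and this scale understates the change of low genes. Levels given as mean ± SD are over the 3 libraries of a group, and other levels are listed library by library. Fold changes are given ± SE. A gene was called at a limma adjusted p (Benjamini-Hochberg over the 13442 genes) under 0.05. No label ties the libraries to cultures grown apart, and the p-values therefore cover no more than the scatter among these samples, which may be technical. Recovered reads numbered 31425219 to 34977447 in the Actr3 KO libraries and 30391369 to 32588460 in the dKO libraries. In bulk RNA, fewer cells of a type and less RNA per cell cannot be told apart.

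The difference between the lines was broad. Of the tested genes 9364 were called (69.7%), 4684 higher in dKO (34.8%) and 4680 lower (34.8%). The dKO and Actr3 KO libraries did not overlap for 9772 genes (72.7%). A call with a change of at least 2-fold was made for 1205 genes (8.96%), of which 328 were higher (2.44%) and 877 lower (6.52%), and after quantile normalization these were 497 and 687. A call in either direction was thus the common state of a gene, and list counts below are read against 34.8% in each direction and a median fold change over all genes of -0.01. Calls of at least 2-fold were mostly decreases in each of the 19 alternatives run. For each gene whose levels are listed below and which is said to have risen or fallen, the dKO and Actr3 KO libraries did not overlap.

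Fold changes followed transcript length. Among the 12288 tested genes with a known transcript (91.4%), the median log2 fold change went from 0.33 in the decile with the shortest transcripts, up to 1435 bases, to -0.32 in the decile with the longest, 6777 bases and more. In the shortest decile 59.3% of genes were called higher and 15.2% lower, and in the longest 16.0% and 63.9%. All 3 dKO libraries lay above the mean of the 6 libraries for the shortest decile (median deviations 0.13, 0.22 and 0.17) and all 3 Actr3 KO libraries below it (-0.14, -0.12 and -0.23), with the signs exchanged for the longest decile. Each list below is therefore given with its counts after a smooth length trend was removed, which was added to the alternatives once the trend had been seen. Those counts stand in brackets, in the same order of direction as the counts before them. The source of the trend was not tested.

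**Figure D1:**
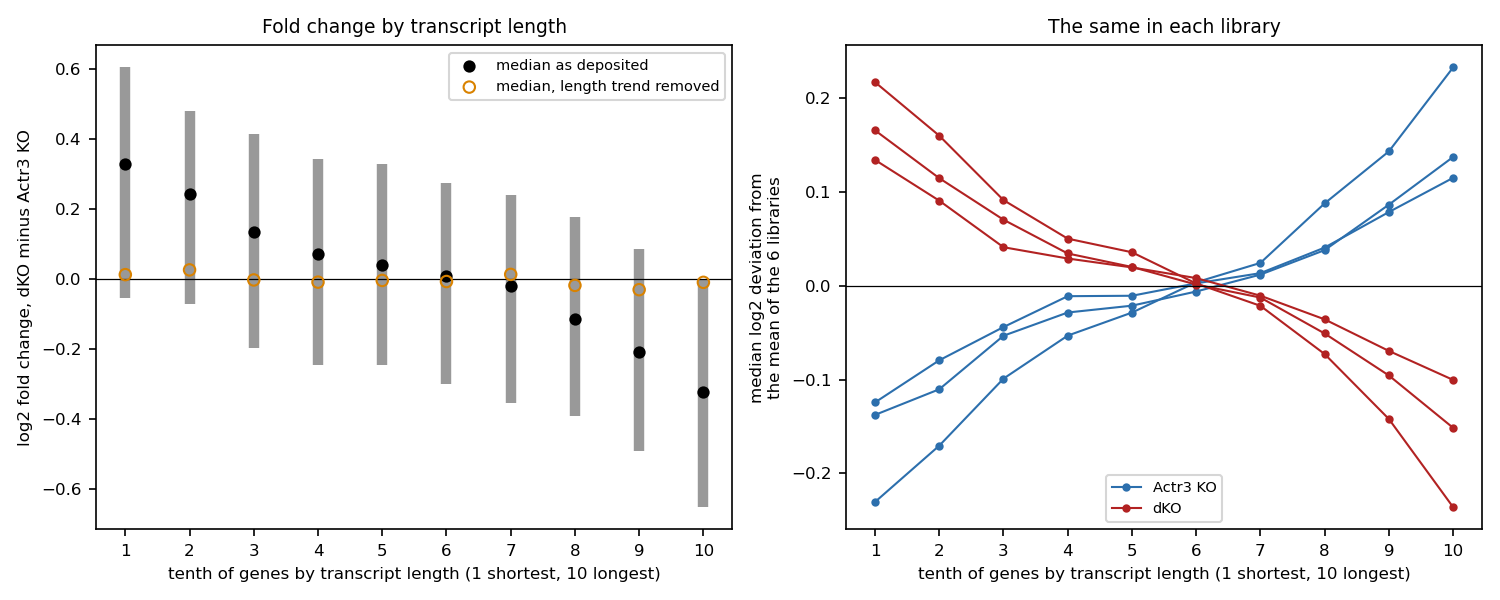
Left, median log2 fold change of dKO minus Actr3 KO (black points) with the lower to upper quartile (grey bars) in deciles of tested genes ordered by transcript length, and the medians after the length trend was removed (open circles). Right, the median log2 deviation of each library from the mean of the 6, 1 line per library; the black medians run from 0.33 to -0.32 and the lines of the 2 groups cross near the middle deciles.

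The edited genes were examined first. Actr3 (chromosome 1, 125392905 to 125435727 in GRCm38) had 1347, 1145 and 1163 normalized counts in the Actr3 KO libraries and 870.0, 833 and 911 in dKO, against a mean of 8336 in control and 1573 with ciliobrevin D. Its low level was thus shared by both lines, and it was lower still in dKO (log2 fold change -0.48 ± 0.07, limma adjusted p = 4.01e-06). Ift88 (chromosome 14, 57424064 to 57517936) had 656, 602 and 594 in Actr3 KO and 633, 573 and 606 in dKO, with overlapping groups and a log2 fold change of -0.03 ± 0.07 (limma adjusted p = 0.713, 95% interval -0.18 to 0.12). After chromosome medians were removed this became -0.19 (limma adjusted p = 0.0217, range over the alternatives 0.0217 to 0.943). A count over a whole gene does not show whether a small edit disrupts the protein, so the Ift88 level checks nothing about the label.

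Markers of the labelled cell type were partly present. Of 16 collecting duct and kidney epithelium markers 15 were tested, 7 were higher and 5 lower, and their summed level was 95700 to 103193 in Actr3 KO and 89356 to 97282 in dKO. The kidney transcription factor gene Pax8 had 5961, 6382 and 6278 in Actr3 KO and 5885, 5799 and 5737 in dKO. The water channel gene Aqp2, which defines principal cells, was close to absent, with 0 in every Actr3 KO library and 1.86, 0 and 0 in dKO. The vasopressin receptor gene Avpr2 stood at 19.9, 17.6 and 13.4 in Actr3 KO and 15.8, 19.4 and 16.7 in dKO, near the lowest tested values. The epithelial markers Krt7, Krt8, Krt18 and Krt19 rose and the cadherin genes Cdh1 and Cdh16 fell, as described with their families below.

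Markers of other cell types were low apart from Csf1r, Lrp2 and Umod. Of 10 fibroblast and pericyte markers 4 were tested, 1 of them higher and 2 lower, with log2 fold changes from -4.14 to 1.44. Their list had a summed level of 165 to 194 in Actr3 KO and 108 to 113 in dKO. Col1a2 and Col3a1, which define fibroblasts, were at 0 in all 6 libraries. Of 8 endothelial markers 1 was tested, with sums of 46.9 to 54.6 and 36.1 to 40.9. Of 9 leukocyte markers 2 were tested, and their sum was mostly Csf1r, the receptor gene for colony-stimulating factor 1, at 4427, 4089 and 4437 in Actr3 KO and 3222, 3095 and 3230.3 in dKO. The macrophage marker Adgre1 was at 0 in all 6 libraries. Of 9 markers of other nephron segments 3 were tested, and the endocytic receptor gene Lrp2 of the proximal tubule fell from 14319.7, 14319 and 17066 to 6504, 5275 and 5937. Umod, of the thick ascending limb, was also tested and fell, and its levels are given with the cystic kidney disease genes below.

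A group of genes with a clear level in Actr3 KO was silent or nearly so in dKO. There were 13 genes with at most 3 reads over the 3 dKO libraries and a mean of at least 50 in Actr3 KO, 5 of them with 0 reads, and 2 genes in the other direction. The 13 genes lay on 8 chromosomes, and none was next to another of them among tested genes. Bhlhb9 and Tceal1 were still near each other on chromosome X, with Bhlhb9 ending at 135891081 and Tceal1 starting at 136707982. The 250 bases before a start of 2 of them are shown, from RefSeq in GRCm38.p6. They were chosen because they differ in CpG content among genes that share the loss. The windows are Bhlhb9 at chrX:135885601-135885850 on the plus strand and Galnt14 at chr17:73710452-73710701 on the minus strand. Both lie inside the span of their gene, 135841639 to 135891081 for Bhlhb9 and 73493207 to 73712138 for Galnt14. Each window therefore precedes a start inside the gene, and the sequence before the outermost start is not shown. Capitals mark each CpG dinucleotide, the site of DNA methylation.
Bhlhb9: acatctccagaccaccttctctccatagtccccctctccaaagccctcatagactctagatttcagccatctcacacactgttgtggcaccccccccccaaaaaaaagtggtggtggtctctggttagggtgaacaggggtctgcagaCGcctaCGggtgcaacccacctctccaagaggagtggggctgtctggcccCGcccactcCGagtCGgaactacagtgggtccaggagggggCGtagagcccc
Galnt14: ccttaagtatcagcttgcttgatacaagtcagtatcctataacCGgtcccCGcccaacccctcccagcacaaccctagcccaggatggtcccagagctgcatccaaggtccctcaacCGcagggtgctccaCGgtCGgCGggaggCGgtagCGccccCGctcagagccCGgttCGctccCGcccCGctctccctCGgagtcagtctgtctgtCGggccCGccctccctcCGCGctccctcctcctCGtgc
The Bhlhb9 window holds 6 CpG and the Galnt14 window 19. Over the 11 of the 13 genes with a window in the table the median was 17, against 16 over 10228 tested genes with a window, 12 in the genes at least 2-fold lower and 9 in those at least 2-fold higher. No methylation was measured here, and these counts describe the sequence only.

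Desmocollin 2 (Dsc2), a desmosomal cadherin, had the highest level among the silent genes, with 1893, 1959 and 2251 in Actr3 KO and 0 in each dKO library, at least 2158-fold lower when the dKO group is set to 3 reads in all. Bhlhb9, a member of the GASP family of proteins that bind G protein-coupled receptors, had 809, 843 and 822 and 0 in each dKO library, at least 873-fold lower. Control and ciliobrevin D libraries expressed both, at means of 1442 and 1067 for Dsc2 and 707 and 652 for Bhlhb9. Galnt14, which encodes an enzyme that starts O-linked glycans, had 1159 reads over the 3 Actr3 KO libraries against 2 over the 3 of dKO, a ratio of 610 (95% exact interval 168 to 5043, counting error only). The integrin gene Itga9 had 718 reads against 1, a ratio of 756 (interval 135 to 29895), and Igfbp2, which encodes an insulin-like growth factor binding protein, 494 against 0, at least 173-fold lower. The others were Aplp1, Gli2, Ctsf, Tceal1, Cpeb1, Gm14403, Lysmd2 and Gatm, at means of 51.6 to 81.9 in Actr3 KO. Of the 13 genes, 8 had a mean of at least 50 in control and 10 with ciliobrevin D. In the other direction Hoxc9 had 3 reads against 169 in dKO, and Gm3376 had 0 against 329.

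Genes of the cilium itself were called in both directions, as tested genes were in general (34.8% each way). Intraflagellar transport and the BBSome, a coat that moves membrane proteins along the cilium, gave 15 higher (37.5%) and 11 lower (27.5%) of 40 genes. Their median log2 fold change was 0.02, and the counts were 10 and 13 after the length trend was removed. Ift22, a small GTPase of the anterograde complex, had 609.8, 643 and 509 in Actr3 KO and 1074, 1180.2 and 1124 in dKO, and control had 972. It was the highest of the list (0.94 ± 0.08, limma adjusted p = 3.89e-09). It lies on chromosome 5, and 0.54 was left once chromosome medians were removed. Ift52, a partner of IFT88 in the core of the train, rose from 1093, 1069.7 and 1102 to 1443, 1504 and 1453. Ift81, which binds tubulin, rose by 0.48 on the log2 scale, and 0.07 was left of this once chromosome medians were removed (limma adjusted p = 0.289, range over the alternatives 3.57e-11 to 0.804); its chromosome 5 is described with the chromosomes below. Dync2h1, the heavy chain of the retrograde motor, stood at 1351 ± 99.2 in Actr3 KO and 867 ± 141 in dKO (-0.65 ± 0.09). Bbs1, a BBSome subunit, fell from 1829, 1783 and 1872 to 1218, 1276 and 1332, where control had 1175.

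The transition zone, a gate at the base of the cilium, and the basal body below it had 9 higher and 14 lower of 35 tested genes (median -0.03, and 13 and 15 after the length trend was removed). Cep97, which with CP110 caps centrioles and holds back cilium growth, fell from 1124, 1043 and 1182 to 473, 469 and 498 (-1.21 ± 0.07, limma adjusted p = 1.68e-11). It lies on chromosome 16 and has a transcript of 7911 bases. Its log2 fold change was -0.93 without the length trend and -0.80 with chromosome medians removed (range over the alternatives -1.26 to -0.53). The dKO levels of Cep97 were below the control mean of 665. Ccp110, the partner of Cep97, fell from 1466 ± 69.1 to 1151 ± 109.

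Proteins of the ciliary membrane and of traffic to it gave 9 higher and 12 lower of 27 (8 and 13 without the length trend). The polycystin gene Pkd1, mutated in dominant polycystic kidney disease, had 8949, 9392 and 10555 in Actr3 KO and 4764, 4551 and 5072 in dKO, against 3534 in control. Its log2 fold change was -0.52 after the length trend was removed. Pkd2, its partner, did not pass the test (0.00 ± 0.05). Cystin 1 (Cys1) fell from 3009, 3041 and 3026 to 1421, 1581 and 1682, and Evc, a Hedgehog regulator at the ciliary base, from 5731, 5906 and 6088 to 2805, 2920.0 and 2892. Arl13b, a GTPase often used to stain cilia, fell from 1136 ± 48.9 to 619 ± 34.2. Rab11a, which starts membrane delivery to the new cilium, rose from 2631, 2819 and 2696 to 4816, 4562 and 4619.8, and Rab8a, which acts after it, from 1592 ± 52.1 to 2413 ± 122.

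Hedgehog pathway genes were mostly lower. Of 11 tested, 8 fell and 1 rose (median -0.47, and 6 and 1 after the length trend was removed). The transcription factor gene Gli2 had 67.5, 81.8 and 94.8 in Actr3 KO, 0 in each dKO library and a mean of 147 in control. Gli2 passed the filter on low values through Actr3 KO alone. The co-receptor genes Gas1 and Cdon fell, Gas1 from 3082, 3032 and 3305 to 1557, 1651 and 1696 and Cdon from 2384, 2523 and 2757 to 1432, 1366 and 1450.3. Disp1, which releases the ligand from cells, fell from 1676, 1875 and 1949 to 916, 976 and 965. Ptch1, the receptor and a target of the pathway, had 1046 ± 69.9, falling to 827 ± 23.6 (-0.34 ± 0.06), Smo did not pass the test (0.12 ± 0.06), and Gli1, also a target, was higher at low counts, 0, 1.04 and 5.74 in Actr3 KO and 11.2, 10.2 and 15.7 in dKO. Gli1 passed the filter on low values through dKO alone. Motile cilia genes were few: 11 were tested, 3 rose and 1 fell (4 and 2 without the length trend), and the regulator Foxj1 did not pass the test (0.10 ± 0.05).

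Of 28 tested genes of cystic kidney disease, 17 fell and 8 rose (16 and 9 after the length trend was removed). Pkhd1, the gene of recessive polycystic kidney disease, had 15639, 15265 and 18444 in Actr3 KO and 8245, 7549 and 8325 in dKO, and 7953 in control. Its log2 fold change of -1.03 ± 0.07 became -0.58 without the length trend. Umod, which encodes uromodulin of the thick ascending limb, fell from 383, 386 and 393 to 122, 108 and 114.

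Most tested genes of the extracellular matrix and its receptors were lower in dKO. Of 26 tested collagens and collagen-processing genes 22 fell and 2 rose (median -1.02, 21 and 2 after the length trend was removed, with a median of -0.92). The basement membrane collagens fell together: Col4a1 had 15796, 17169 and 19384 in Actr3 KO and 2558, 2716 and 2725 in dKO (-2.71 ± 0.06, limma adjusted p = 1.22e-16), and Col4a2, its neighbour and partner chain, had 13261, 13814 and 15898, falling to 2269, 2417 and 2264. The chains of the mature kidney membrane, Col4a3 and Col4a4, went from 15881, 16095 and 17897 to 5228, 4946 and 4924 and from 12249, 11929.5 and 12998 to 3631, 3384 and 3609. For Col4a3 and Col4a4 control lay between the groups and nearer to dKO, at 6537 and 4178. For Col4a1 and Col4a2 control was nearer to Actr3 KO, at 12666 and 10632. The fibrillar chain Col5a1 fell from 115, 112 and 123 to 1.86, 2.77 and 3.93, and passed the filter on low values through Actr3 KO alone. Col7a1, the anchoring fibril collagen, was 1 of the 2 that rose, from 48.7, 62.1 and 30.6 to 149.6, 124 and 151.

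Laminins and other basement membrane genes had 17 of 19 lower and 1 higher, the same counts after the length trend was removed (median -0.92, then -0.96). Nid2, which links laminin to collagen IV, had 4588, 4771 and 5316 in Actr3 KO and 761, 837 and 866 in dKO. Lama1, a laminin chain of early epithelium, had 1747, 1684 and 1929, falling to 272, 314 and 323, and only 174 in control. Of Frem2 and Fras1, which form a complex under epithelia and whose loss affects kidney formation, Frem2 fell by 4.99 and Fras1 fell by 2.12 on the log2 scale. The single gene that rose was Nid1, from 16.9, 11.4 and 14.4 to 67.9, 68.4 and 77.5.

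Integrins, the cell receptors for this matrix, fell in 13 of 18 cases and rose in 2 (12 and 3 after the length trend was removed). The β1 gene Itgb1, partner of most laminin and collagen receptors, had 59558, 62976 and 69911 in Actr3 KO and 31017, 31084 and 30821 in dKO. Itgb3 fell from 207, 231 and 263 to 19.5, 16.6 and 13.7, Itga7 from 519, 530.2 and 528 to 106, 102 and 82.4, and Itgb5 from 18110.5, 19584 and 21072 to 8038, 9395 and 8825. The log2 fold change of Itgb5, on chromosome 16, went from -1.16 to -0.75 with chromosome medians removed. Itgb2, usually a leukocyte integrin, rose from 34.1 ± 4.38 to 178 ± 22.6. The macrophage marker Adgre1 was at 0 beside it. None of the groups overlapped for these genes.

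**Figure D2:**
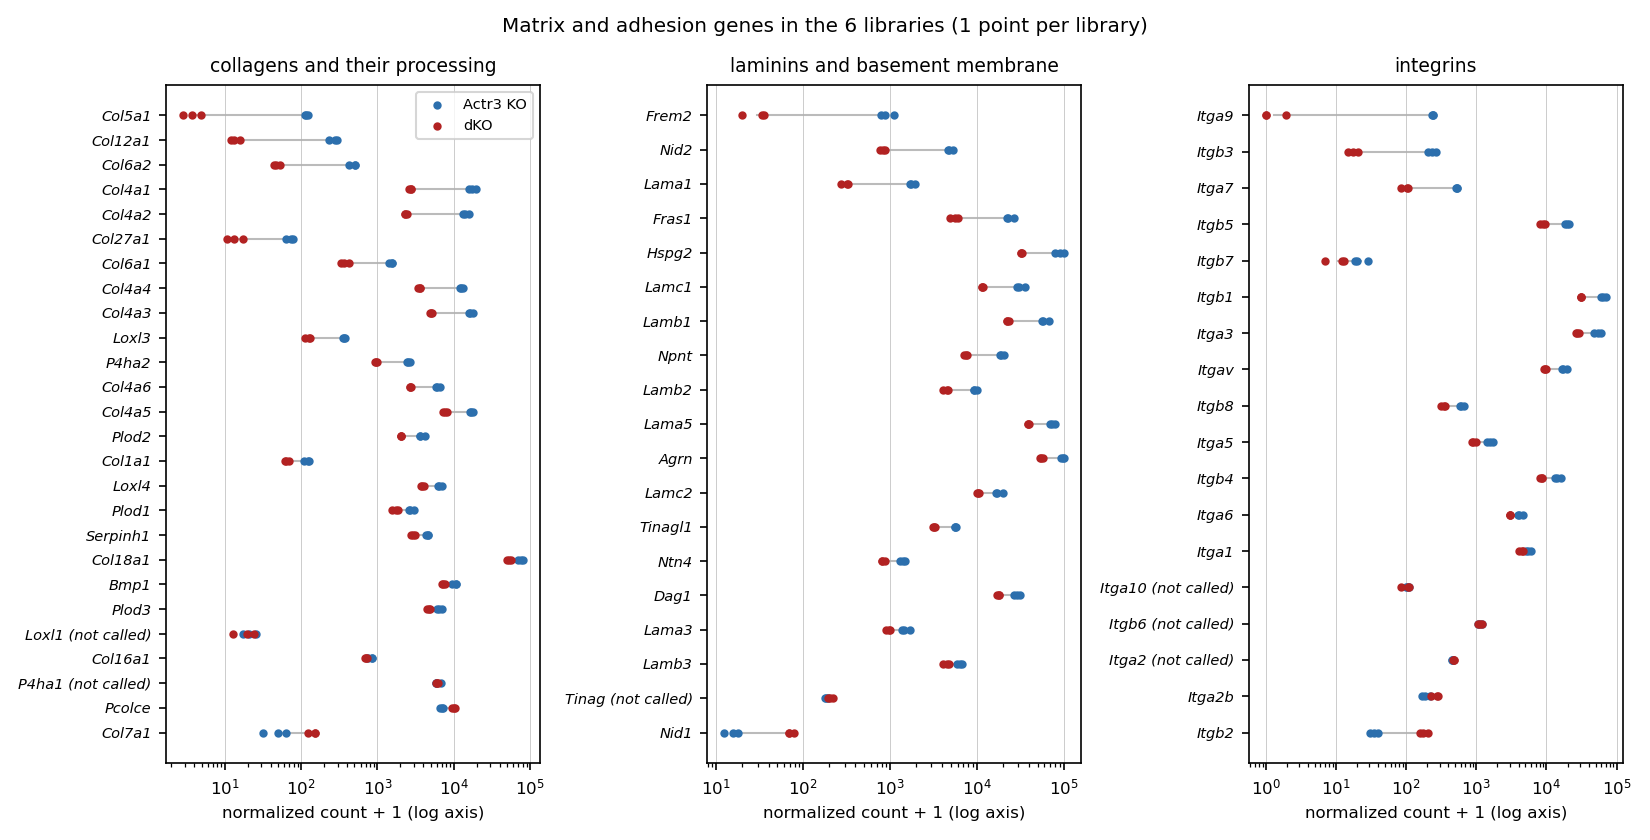
Normalized counts plus 1 on a log axis for the tested collagens, laminins and integrins, 1 point per library, blue for Actr3 KO and red for dKO, with a grey line between the group means. Red points lie left of blue for 22 collagen, 17 laminin and 13 integrin genes that were called lower. Points right of blue at the foot of the panels are the genes that rose, such as Col7a1, Nid1 and Itgb2.

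Matricellular proteins and proteases gave 17 lower and 3 higher of 27 (17 and 4 after the length trend was removed). Tnc, an adhesion-modulating glycoprotein, had 5890.2, 6537 and 7426 in Actr3 KO and 659, 679 and 716 in dKO, and Fbln1, a basement membrane linker, 1118, 1184 and 1297, falling to 205, 219 and 199. Mmp15, a membrane metalloprotease, fell from 5718, 5875 and 6527 to 1670.3, 1803 and 1786, and the fibronectin gene Fn1 from 80257 ± 9778 to 31014 ± 2039. The collagenase Mmp13 rose at low counts, from 1.99, 1.04 and 7.66 to 35.3, 33.3 and 37.3, and passed the filter on low values through dKO alone.

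Signalling genes moved mostly down. In the TGF-beta and BMP list 27 fell and 5 rose of 39 (27 and 7 after the length trend was removed, median -0.58, then -0.51). Follistatin (Fst), which neutralises activins, had the smallest adjusted p of all tested genes: 7839, 7909.5 and 8148 in Actr3 KO, 449, 471 and 448 in dKO, and means of 6778 in control and 6417 with ciliobrevin D (-4.12 ± 0.05, limma adjusted p = 1.2e-20). The ligand genes Inhbb, Tgfb3 and Bmp6 fell, Inhbb from 4268, 4174 and 4659 to 1429, 1550.2 and 1469, Tgfb3 from 1429, 1386 and 1493 to 479, 432 and 466 and Bmp6 from 2214, 2130.1 and 2220.1 to 646, 746 and 773. Among transducers Smad7, an inhibitor and target, fell from 1638 ± 36.8 to 834 ± 81.2, while Smad2 rose from 5259.6 ± 143 to 8232 ± 346. For Fst dKO was the group apart from the other 3, whereas Bmp6 in dKO was near its control level of 639.

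WNT pathway genes fell in 27 of 37 cases and rose in 6 (26 and 6 after the length trend was removed). Antagonists and ligands were both among them: Dkk3, a secreted Dickkopf family protein, had 2120.3, 2339 and 2479.6 in Actr3 KO and 28.8, 23.1 and 23.6 in dKO, and Wnt5b, a non-canonical ligand, 478, 389 and 454, falling to 8.37, 8.32 and 10.8. Dkk2, a WNT co-receptor inhibitor, fell from 714, 512 and 651 to 37.2, 19.4 and 29.4, where control had 10.00. The targets and feedback genes Rnf43 and Axin2 fell, Rnf43 from 1062, 1106 and 1237 to 294, 321 and 313 and Axin2 from 49.8 ± 3.84 to 12.3 ± 1.88. Wnt4, needed for tubule formation, rose from 879 ± 31.5 to 1483 ± 125, and Ctnnb1 did not pass the test (0.12 ± 0.06).

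In the Notch list 11 of 21 fell and 3 rose (12 and 3 without the length trend). The receptor gene Notch2 had 27457, 28054 and 32794 in Actr3 KO and 9670.2, 9096 and 9364 in dKO, and the ligand genes Jag1 fell by 1.29 and Jag2 fell by 1.42 on the log2 scale. The log2 fold change of Notch2, on chromosome 3, was -1.65, and -1.25 was left once chromosome medians were removed. Without the length trend it was -1.26. Notch3 rose from 584 ± 48.3 to 843 ± 14.1, and the target Hes1 fell from 1469 ± 67.7 to 1167 ± 75.8. Of 11 insulin-like growth factor binding and receptor genes 9 fell and 0 rose. The receptor gene Igf1r had 13454, 12785 and 15805 in Actr3 KO and 6276, 5790.0 and 6167 in dKO, with a log2 fold change of -1.20 ± 0.07 that became -0.79 without the length trend. In that alternative 8 of the 11 fell and 1 rose.

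Receptor tyrosine kinase pathways were lower more often than higher. Of 27 FGF, PDGF, VEGF and HGF genes 17 fell and 6 rose (17 and 5 without the length trend). Of 13 EGF receptor and ligand genes 8 fell and 3 rose (8 and 4 without the length trend). Fgfr1 went from 385, 404 and 407 to 21.4, 14.8 and 21.6, while Fgfr3 rose from 401 ± 23.9 to 688 ± 49.0. Nrp1, a VEGF and semaphorin co-receptor, had 8599, 9224 and 10714, falling to 3372, 3203 and 3090.0, and Vegfa 2898, 2842 and 2977, falling to 1471, 1447 and 1524. Egfr had 20551, 19904 and 23381 in Actr3 KO and 12775, 12126 and 12724 in dKO, and its fold change of -0.76 ± 0.06 became -0.39 without the length trend. Among ERK feedback and immediate early genes 15 of 29 fell and 5 rose (16 and 5 without the length trend). Fos fell from 222, 229 and 273 to 69.7, 81.4 and 63.8 and Jun from 4189, 4483 and 4843 to 2567, 2785 and 2754. Control means were higher than either group, at 1086 and 8822.

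Of 36 ephrin, semaphorin and netrin guidance genes 29 fell and 5 rose (30 and 6 after the length trend was removed). Ntn1 had 12998, 13373 and 14568 in Actr3 KO and 4573, 4953 and 4591 in dKO, Sema5a 33038, 32254 and 38982, falling to 12052, 10459.9 and 11557, and the ephrin receptor gene Epha4 3010.1, 3027 and 3628, falling to 934, 819 and 837. Sema3c was the abundant exception, at 9894 ± 1003 in Actr3 KO and 18457 ± 457 in dKO (0.90 ± 0.07).

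Targets of YAP and TAZ, coactivators that act through TEAD factors when cells are spread or tense, fell in 16 of 24 cases and rose in 3 (14 and 5 after the length trend was removed, with the median moving from -0.40 to -0.20). Ccn1, a matricellular protein, had 19379.7, 18153 and 20389.8 in Actr3 KO and 5577, 5809 and 5719.8 in dKO (-1.76 ± 0.06, limma adjusted p = 7.26e-15), and control was above both, at 30232. F3, which encodes tissue factor, fell from 10119.9, 9710.4 and 10485 to 3518, 3483 and 3449, and Crim1, which binds BMPs, from 11163, 11418 and 13493 to 5637, 5305 and 5598. Among classical targets Ccn2 fell by 0.60 and Ankrd1 fell by 0.46 on the log2 scale. Amotl1 and Ajuba did not pass the test (log2 fold changes of 0.00 ± 0.05 and 0.01 ± 0.05).

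The upstream windows of 2 of these targets are shown because they hold the TEAD motif GGAATG, marked in capitals on either strand (CATTCC on the other): Ccn1 at chr3:145649986-145650235 on the minus strand and Crim1 at chr17:78199998-78200247 on the plus strand, from RefSeq in GRCm38.p6. The Crim1 window ends past the outermost start of its gene, at 78200233, and so precedes a start inside the gene.
Ccn1: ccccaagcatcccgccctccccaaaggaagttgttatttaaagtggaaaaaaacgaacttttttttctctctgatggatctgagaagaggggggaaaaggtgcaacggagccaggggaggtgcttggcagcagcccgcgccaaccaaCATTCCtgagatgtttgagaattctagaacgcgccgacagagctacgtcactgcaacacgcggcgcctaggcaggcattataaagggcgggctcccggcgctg
Crim1: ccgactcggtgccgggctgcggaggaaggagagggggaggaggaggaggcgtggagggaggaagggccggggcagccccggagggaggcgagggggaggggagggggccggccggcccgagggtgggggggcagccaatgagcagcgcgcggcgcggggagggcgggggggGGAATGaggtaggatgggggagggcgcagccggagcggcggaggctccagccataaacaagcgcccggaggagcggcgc
Searched on both strands in the 250 bases before the start, GGAATG was in 7 of 16 tested YAP and TAZ targets with a window (43.8%), in 6 of the 10 that fell, in 10.6% of the 10228 windows of tested genes and in 15.5% of those of genes at least 2-fold lower. The same motif was in 10 of 27 tested SRF and MRTF targets with a window, and in 8 of the 16 that fell. Its frequency was thus not particular to the YAP and TAZ list. The CArG box of SRF was in 7 of those 27 SRF and MRTF targets (25.9%) and in 1.11% of all tested windows. A match is a description of the letters and not a binding site, and the target lists were drawn up with such genes known.

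Of 10 subunit genes of the Arp2/3 complex 9 were tested. The edited gene Actr3 was lower and the other 8 were higher (median 0.72, 7 and 1 after the length trend was removed, 8 and 1 with chromosome medians removed too). Arpc3 had 2602, 2971 and 2499 in Actr3 KO and 6248, 6710.3 and 6148 in dKO (1.25 ± 0.06, limma adjusted p = 3.74e-12), and Actr2, the partner of ACTR3, 5869, 5752 and 5784, rising to 11445, 10704 and 10399. Control levels were close to dKO, at 5495 for Arpc3 and 9522 for Actr2. Arpc1b rose from 5595, 5965 and 5529 to 10751, 11371 and 10401 and Arpc1a from 2319, 2411 and 2244 to 3966, 4179.7 and 3926; both lie with Arpc3 on chromosome 5, and the 3 log2 fold changes without chromosome medians were 0.84, 0.53 and 0.39. The subunit no longer called after the length trend was removed was Arpc2, whose log2 fold change went from 0.34 ± 0.05 to 0.08.

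Activators of the complex, the WASP and WAVE family and its regulators, rose in 15 of 27 cases and fell in 4 (16 and 3 without the length trend). The GTPase genes Rac1 and Cdc42, which switch these activators on, both rose. Rac1 went from 6529.7, 7144 and 7098 to 13347, 12509 and 12222 and Cdc42 from 4509.7, 5317 and 4868 to 8702, 8521 and 8275. The log2 fold change of Rac1, on chromosome 5, went from 0.87 ± 0.06 to 0.47 with chromosome medians removed. Arpin, an inhibitor of Arp2/3, rose as well, from 825, 867 and 787 to 1363, 1356 and 1431. Formins and other nucleators of unbranched filaments fell in 12 of 18 cases and rose in 3, and these counts were 7 and 5 after the length trend was removed. Fhod3 had 7403, 7583 and 8305 in Actr3 KO and 3947, 3954 and 3808 in dKO, and Diaph1, the mDia1 gene, had 5427 ± 499.5, falling to 4372 ± 84.6 (-0.31 ± 0.06, -0.15 without the length trend).

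Genes of actin filament turnover rose in 18 of 24 cases and fell in 3 (19 and 4 after the length trend was removed). Thymosin β10 (Tmsb10), which sequesters actin monomers, had 5862, 6059 and 5369 in Actr3 KO and 13839.9, 14308 and 13234 in dKO, against 22663 in control. Profilin 1 (Pfn1) rose from 11391 ± 826 to 20309 ± 397 and profilin 2 (Pfn2) fell from 1086, 1093 and 1033 to 599, 595 and 599.5. The severing protein gene Cfl1 rose from 17467 ± 750.2 to 25114 ± 1091.

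SRF and MRTF targets and contractile genes fell in 18 of 30 cases and rose in 5 (18 and 3 without the length trend). Mylk, the myosin light chain kinase, had 7465, 7778 and 8550.2 in Actr3 KO and 1785, 1706 and 1799.6 in dKO (-2.17 ± 0.05, -1.76 with chromosome medians removed). Vcl, which encodes vinculin of focal adhesions, had 15937, 14963 and 17745, falling to 7397, 6834 and 7065, and the filamin gene Flna 45316, 49876 and 57563, falling to 22596, 21083 and 21140.2, becoming -0.92 from -1.23 ± 0.08 without the length trend. Actb was among those that rose, from 28084 ± 702 to 42765 ± 2032, and Tpm1 did not pass the test (0.12 ± 0.06).

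Microtubule genes rose more often than they fell. Of 15 tubulins 9 rose and 1 fell (8 and 1 after the length trend was removed, with the median moving from 0.41 to 0.18). Tuba1b had 2783, 2798 and 2548 in Actr3 KO and 4389.9, 4630.1 and 4343 in dKO, and Tubb5 8719, 8828 and 8711, rising to 12528, 12924 and 12257. Near-identical tubulin genes can share reads, so single members are uncertain. Of 29 dynein and dynactin genes 15 rose and 5 fell (15 and 4 without the length trend). Dctn2, on chromosome 10, rose from 4264, 4322 and 3881 to 7403, 8054 and 7538 (0.88 ± 0.05, 0.47 with chromosome medians removed). The heavy chain Dync1h1, with a very long transcript, fell from 35391, 37973 and 45231 to 23520.3, 20571 and 21384 (-0.85 ± 0.08, -0.37 without the length trend).

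Epithelial genes were called both ways, as tested genes were in general. Of 33 tight junction and polarity genes 15 fell and 10 rose, with the same counts without the length trend, and the median of -0.13 became 0.05 once chromosome medians were removed. The claudins, which set the permeability of the junction, diverged. Cldn3 had 2738, 3185 and 2922 in Actr3 KO and 10169, 11233 and 10094 in dKO, and Cldn4 17817, 20605 and 19288, rising to 39630.0, 45587 and 38345. Both genes lie on chromosome 5. Their log2 fold changes of 1.83 and 1.097 became 1.43 and 0.69 with chromosome medians removed. Without the length trend they were 1.55 and 0.896, and the lowest over the alternatives were 1.14 and 0.497. Cldn2, which forms a cation pore, fell from 281, 301 and 321 to 77.1, 92.5 and 99.1. Cldn8, typical of the collecting duct, fell from 202 ± 36.8 to 84.8 ± 4.89. Control held 6871 of Cldn3, 51455 of Cldn4 and 1164 of Cldn2.

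In desmosomes the loss of Dsc2 stood beside Dsg2 and Dsp, which did not pass the test (-0.01 ± 0.06 and 0.07 ± 0.07). Pkp3, a plaque protein, rose from 432, 439 and 429.9 to 1009, 1114 and 1019, and Perp, a desmosomal membrane protein, from 631, 816 and 710.4 to 1803, 1854 and 1782. Of 16 desmosome and hemidesmosome genes 9 fell and 3 rose (10 and 5 without the length trend). In the cadherin and adherens junction list 10 of 20 fell and 3 rose (10 and 4 without the length trend). The classical cadherin gene Cdh6 had 16187, 17344 and 19156 in Actr3 KO and 7713, 7679.6 and 8135 in dKO, Cdh3 9957, 10756 and 11369.6, falling to 4608, 5265 and 5149, and the E-cadherin gene Cdh1 12963, 13379 and 15596, falling to 9080.0, 9960.4 and 9938. Cdh16, the kidney-specific cadherin, fell from 34032, 35524 and 36869 to 16347, 18952 and 18067, where control had 18297.

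Of 11 tested intermediate filament genes 6 rose and 3 fell, with the same counts without the length trend. The 5 keratins Krt4, Krt7, Krt8, Krt18 and Krt19 rose with the lamin gene Lmnb2, Krt80 did not pass the test, and those that fell were Vim, Nes and Lmna. With chromosome medians removed 5 of the 11 genes were called higher and 2 lower, and the list median went from 0.49 to 0.08. The simple epithelium keratin Krt18 had 5119, 5866 and 5355 in Actr3 KO and 9396, 10235 and 9784 in dKO, Krt7 4762, 5220.2 and 4703, rising to 8587, 9109 and 7984, and Krt4, a keratin of stratified mucosa, 41.7, 51.8 and 40.2, rising to 787, 801 and 744. Vimentin (Vim), of mesenchymal cells, fell from 262, 354 and 339 to 76.2, 76.8 and 58.9.

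Urothelial and cornified envelope genes rose in 14 of 19 cases and fell in 1 (12 and 1 after the length trend was removed). Psca, a surface antigen of urothelium, had 5.96, 9.32 and 4.79 in Actr3 KO and 185, 236 and 195 in dKO (4.78 ± 0.23). It passed the filter on low values through dKO alone. Upk3b and Upk3bl, of the uroplakin family that lines the bladder, rose from 261, 269 and 218 to 1048, 1164 and 1039 and from 45.7, 34.2 and 27.8 to 374, 392 and 371. Ly6a rose from 65.5, 71.5 and 67.0 to 846, 721 and 674. The dKO libraries were above all 9 others for these 4 genes, and control means were 27.9, 442, 120.4 and 268.

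**Figure D3:**
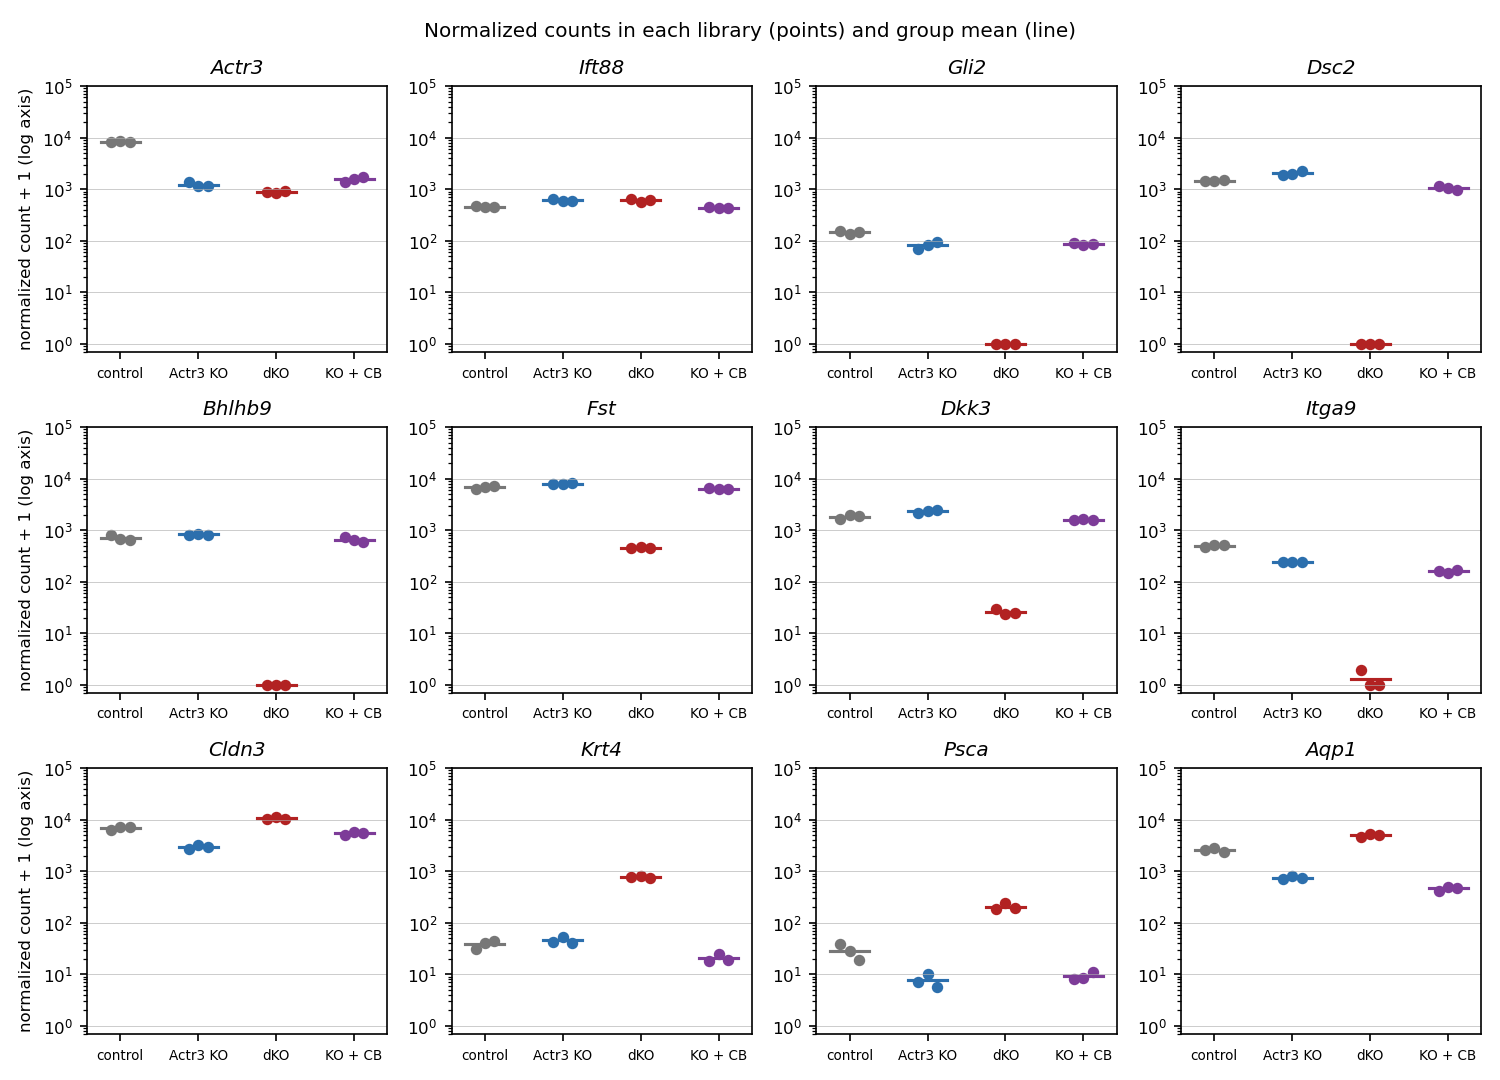
Normalized counts plus 1 on a log axis in all 12 libraries (points, 3 per group) with group means (lines) for 12 genes; KO + CB is Actr3 KO with ciliobrevin D. In dKO Gli2, Dsc2 and Bhlhb9 are at 0, Fst and Dkk3 are below all other groups, and Cldn3, Krt4, Psca and Aqp1 above them.

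Kidney transcription factor genes gave 13 higher and 8 lower of 27, with the same counts without the length trend. Osr2 rose from 118, 116 and 119 to 426, 409.7 and 465 and Sim1 from 1351, 1402 and 1471 to 2633, 2237 and 2589.5. Lhx1, a factor of nephron formation, fell from 252, 203 and 191 to 43.7, 43.5 and 46.1, and Pax2 from 3661, 4157 and 4016 to 3041, 3011 and 3022. Tfcp2l1, a factor of collecting duct cells, was lower by 0.24 on the log2 scale, but 0.09 higher without the length trend (limma adjusted p = 0.102, range over the alternatives 2.98e-05 to 0.415).

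Transporter and tonicity genes of the collecting duct fell in 17 of 30 cases and rose in 9 (15 and 8 without the length trend). The water channel gene Aqp1, in the kidney a gene of proximal tubule and thin limb, had 706, 798 and 748 in Actr3 KO and 4547, 5225 and 5079 in dKO (2.72 ± 0.06, limma adjusted p = 7e-17), with 2556 in control and 461 with ciliobrevin D. Slc5a3 and Slc6a6, carriers of the osmolytes myo-inositol and taurine and targets of the tonicity factor NFAT5, fell from 2562, 2540.2 and 2929.5 to 1392, 1176 and 1307 and from 14762, 14796 and 15558 to 9575, 9419 and 9918. Akr1b3, which makes the osmolyte sorbitol, rose from 2899.6 ± 273 to 4262 ± 327.

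Immune genes divided. MHC class I and antigen presentation genes fell in 14 of 21 cases and rose in 3 (17 and 2 after the length trend was removed). The peptide transporter gene Tap2 fell from 2319.9, 2332 and 2579 to 744, 849 and 826 and its partner Tap1 from 2759, 2579 and 2713 to 1139.5, 1346 and 1199. Control was lower than both groups, at means of 641 and 267. Psmb9, an immunoproteasome subunit, fell from 440.0, 409 and 389.6 to 135, 138 and 148. Members of the H2 family can share reads and are not described singly. Complement and acute phase genes fell in 8 of 10 cases and rose in 1 (8 and 0 without the length trend), with the lowest list median, -1.56. C3, the central complement protein, had 2162, 1901 and 2392 in Actr3 KO, 239, 242 and 279.7 in dKO and a mean of 149 in control. Ceruloplasmin (Cp), a copper-carrying acute phase protein, fell from 20178, 18137 and 21901 to 5175, 4986 and 5399, with 7181 in control.

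Interferon-stimulated genes gave 14 higher and 11 lower of 39 (14 and 14 without the length trend). Cxcl10, a chemokine, rose from 237, 245 and 241 to 607, 598 and 569 and Oas1a, an antiviral synthetase, from 280.1, 315 and 267 to 624, 681 and 608, while Gbp7, a guanylate-binding protein, fell from 759.7, 643 and 715 to 323, 266 and 284. NF-kB, chemokine and cytokine genes gave 16 higher and 10 lower of 31, and 9 and 10 after the length trend was removed. Csf1, the macrophage growth factor, had 12323, 11598 and 13106 in Actr3 KO and 3356, 3467 and 3507 in dKO, and Birc3, an apoptosis inhibitor and NF-kB target, 491, 486 and 493, falling to 68.8, 52.7 and 70.7. Il1rn, the interleukin 1 receptor antagonist, rose from 58.6, 58.0 and 64.1 to 343, 314 and 298. In the prostaglandin list 9 of 13 fell and 4 rose (9 and 3 without the length trend), among them the receptor gene Ptger4, from 2316, 2318 and 2701 to 1037, 1166 and 1153, and Ptges3, a co-chaperone and prostaglandin synthase, from 1939, 1922 and 1904 up to 3612, 3264 and 3373.

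The lists with the shortest transcripts were those of housekeeping genes. Cytosolic ribosomal protein genes, with a median transcript of 1151 bases, rose in 44 of 45 cases, with 0 lower (median 0.63), and in 42, with 2 lower, after the length trend was removed (median 0.40). Rpl32 had 5966, 6014 and 5577 in Actr3 KO and 11314, 11951 and 11520.0 in dKO, and Rpl6 13769, 15350.0 and 13927, rising to 31029, 31358 and 30186, against 13142 and 25014 in control. Ribosomal protein genes have many processed copies in the genome, so single values are uncertain. Nuclear genes of oxidative phosphorylation, with a median transcript of 1363 bases, rose in 30 of 45 cases and fell in 3, but this was 18 and 16 after the length trend was removed, and the median went from 0.28 to 0.02. Atp5d, a subunit of ATP synthase, had 1483, 1487 and 1477 in Actr3 KO and 3013, 3078 and 2947 in dKO.

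Genes encoded by the mitochondrial genome fell, against the direction of other short transcripts. All 15 that were tested, 13 protein genes and 2 rRNAs, were called lower. The median log2 fold change over the protein genes was -1.34, and 8 of the 13 were at least 2-fold lower. The Actr3 KO and dKO libraries overlapped for ND4L, ATP8 and the rRNA gene mt-Rnr1. The call of mt-Rnr1 was close to the threshold (-0.18 ± 0.08, limma adjusted p = 0.0489). COX1, the largest subunit gene of cytochrome oxidase, had 1067729, 1222101 and 1329397 in Actr3 KO and 605643, 621401 and 618588 in dKO, and CYTB, of complex III, 300806, 369327 and 380036, falling to 135567, 138276 and 139830.2. Mitochondrial genes such as ND4L and ATP8 overlap their neighbours, so reads there cannot be assigned with certainty. The mitochondrial share of all reads was 7.90% to 9.49% in Actr3 KO, 4.88% to 4.97% in dKO, 4.00% to 4.92% in control and 8.30% to 9.33% with ciliobrevin D. The dKO libraries thus lay at the upper end of control or just above it. The libraries were selected for poly(A), and whether the share follows mitochondrial RNA or its capture was not tested.

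Other metabolic lists were mixed. Glycolysis and hypoxia targets gave 16 higher and 12 lower of 31 (15 and 11 without the length trend). Egln3, an oxygen sensor and hypoxia target, rose from 175, 199.9 and 216 to 769.6, 835 and 791, and the glucose transporter gene Slc2a1 fell from 13173, 14250.2 and 15510.1 to 7461, 8618 and 8124. NRF2 and glutathione genes rose in 17 of 26 cases and fell in 3 (14 and 4 after the length trend was removed), led by the glutathione transferase genes Gstm2, from 959, 926 and 867 to 3092, 2949.6 and 3078, and Gsto1, from 1309.9, 1410.4 and 1281 to 2855, 2977 and 2844. In the cholesterol list 12 fell and 9 rose of 27, with the same counts without the length trend, and Mvk, mevalonate kinase, rose from 546, 694 and 621 to 1263, 1315 and 1112. ATF4 and unfolded protein response genes gave 12 higher and 11 lower of 30 (9 and 13 without the length trend), with Slc7a5, an amino acid transporter, down from 6642, 6739 and 7033 to 3290.3, 3364 and 3068 and Ddit3 (CHOP) up from 1088, 1006 and 1007 to 1767, 1851 and 1836.

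Cell cycle and DNA replication genes rose in 21 of 41 cases and fell in 9 (22 and 11 after the length trend was removed). Cdk1, the mitotic kinase, had 4486, 4308 and 3935 in Actr3 KO and 7927, 8374 and 8219 in dKO, and Ube2c, which acts at anaphase, 1619, 1604 and 1363, rising to 2912, 2814 and 2585. Mki67 stood at 28271 ± 3294 in Actr3 KO and 18012 ± 1460.3 in dKO (-0.65 ± 0.08, -0.28 without the length trend) and Top2a did not pass the test (0.00 ± 0.06), so proliferation markers did not move one way. In the p53 list 12 rose and 7 fell of 23, and 8 and 8 after the length trend was removed. Cdkn2a, which encodes p16 and p19ARF, rose from 4161, 4517 and 3791 to 7177, 7604 and 6945 and Zmat3, a p53 target, fell from 742, 793 and 742 to 344, 309.8 and 343.

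**Figure D4:**
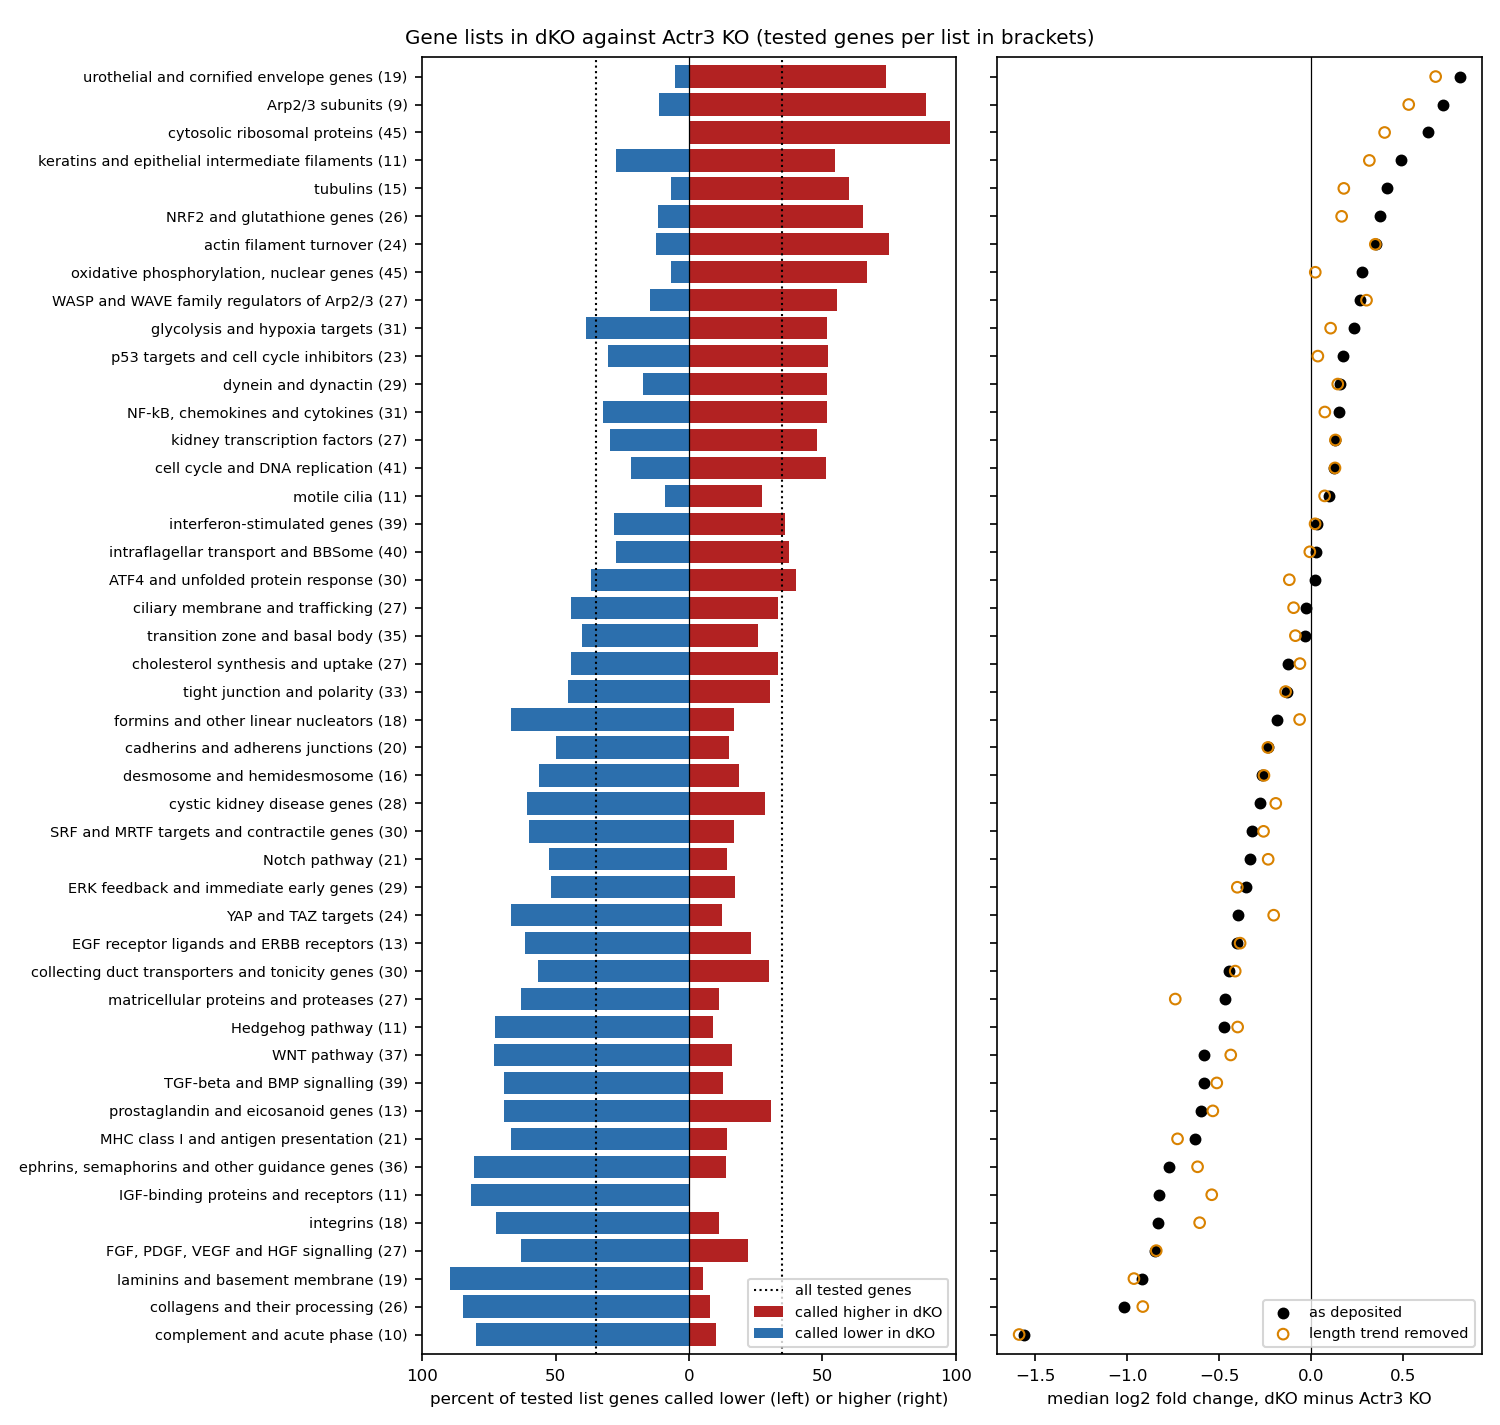
Left, percent of tested genes of each of 46 lists called lower (blue) or higher (red) in dKO, with dotted lines at the 34.8% of all tested genes in each direction. Right, the list's median log2 fold change as deposited (black) and after the length trend was removed (open circles); matrix, guidance and complement lists lie to the left in both, and the open circle of the oxidative phosphorylation list is at 0.02.

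The largest single increases and decreases lay partly outside these lists. Cdk14, a cyclin-dependent kinase linked to WNT receptors, had 7.94, 8.28 and 7.66 in Actr3 KO and 249, 230.3 and 262 in dKO, with 105 in control. Cpeb2, a translation regulator, was at 5.96, 7.25 and 11.5 in Actr3 KO and 181, 154 and 168 in dKO, and at 344 in control, so that Actr3 KO was the lowest of these groups for both genes. The other highest increases included Sh3gl2 (endophilin A1), from 8.94, 12.4 and 3.83 to 195, 225 and 245, and the retinol-oxidising dehydrogenase gene Adh7, from 104, 106 and 81.4 to 851, 874 and 805. Cdk14, Cpeb2 and Sh3gl2 passed the filter on low values through dKO alone. Among the decreases, Pros1, which encodes anticoagulant protein S, had 2795, 2789 and 3237 in Actr3 KO and 53.9, 50.9 and 47.1 in dKO. Enpep, which encodes aminopeptidase A of the angiotensin system, had 5045, 5014 and 5819, falling to 154, 183 and 168, with 4695 in control. Timp3, an inhibitor of metalloproteases, went from 408, 420.4 and 409.7 to 7.44, 3.70 and 7.85 and Clip3, a linker of microtubules and membranes, from 358, 369 and 337 to 5.58, 0.925 and 0.981. Timp3 and Clip3 passed the filter on low values through Actr3 KO alone.

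Whole chromosomes were shifted as well. The median log2 fold change was 0.41 over 639 tested genes of chromosome 10, 0.40 over 846 of chromosome 5, -0.41 over 414 of chromosome 16 and -0.40 over 630 of chromosome 3, with -0.20 over 719 of chromosome 1. On chromosome 16 71.0% of genes were called lower and 8.94% higher, and on chromosome 10 67.1% were called higher and 11.4% lower. The shift ran along each of these 4 chromosomes: in 4 consecutive blocks of genes the medians were 0.44, 0.33, 0.44 and 0.41 on chromosome 10, 0.45, 0.38, 0.37 and 0.37 on chromosome 5, -0.30, -0.40, -0.53 and -0.48 on chromosome 16 and -0.35, -0.42, -0.47 and -0.31 on chromosome 3. Chromosome number was not measured, and its part in these medians was not tested. With chromosome medians removed 9164 genes were called, and with the length trend removed too 8046 of 12288. Levels given above for single genes on these chromosomes include the shift, also where it is not stated.

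**Figure D5:**
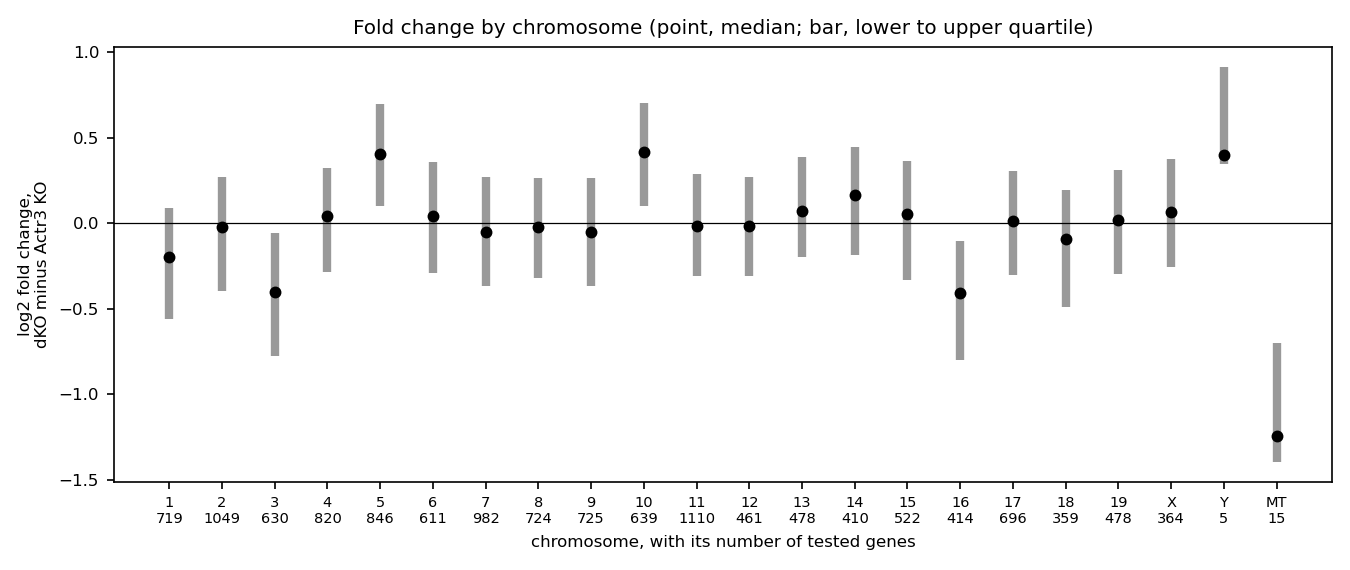
Median log2 fold change of dKO minus Actr3 KO (points) and lower to upper quartile (bars) of the tested genes of each chromosome, with their number under its name. Chromosomes 5 and 10 lie near 0.4, 3 and 16 near -0.4, and the 15 mitochondrial genes (MT) at a median of -1.24.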

How the data were processed

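RNA was measured in 12 libraries, 3 in each of 4 groups, of which 6 were compared here. The deposited table holds 1 signal value per gene and library, a count that the authors divided by a size factor. fastp 0.23.2, HISAT2 2.2.1, featureCounts 2.0.1, DESeq2 2.11.40.7 and the builds mm10 and GRCm38 are named in the submitters' processing notes. No source used here states how strand was handled. Without strand, reads of a gene and its antisense partner cannot be told apart. Each library's values were whole multiples of its step in 100% of cases, within 0.01 of a read, and reads were recovered from them. The header of 1 control column names control line 2, replicate 1, where the sample titles name control line 1 throughout, and it was used as a member of the control group, which enters no test of the main fit. Total reads were 28902562 to 38077987 per library. Replicates differed by more than counting noise, with a chi-square per degree of freedom of 4.30 to 13.2. Each pair was scaled by total reads and not by size factor for this, so any gap between these scalings also enters the value.

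Genes that reached 10 in 3 of the 6 libraries were fitted as log2(value + 1) with limma 3.58.1 (R 4.3.3). The fit had a trend on the mean and Benjamini-Hochberg adjustment over 13442 genes. A gene high in 1 group only could pass this filter through that group alone, as the near-silent genes did. A simulation with 20 draws of 200 changed genes each recovered 68.3% of 1.25-fold, 94.7% of 1.5-fold and 99.9% of 2-fold changes. The changed genes had a mean of at least 50 in Actr3 KO, so recovery of lower genes was not examined. They were far fewer than the 9364 genes called in the data, and no length or chromosome shift was simulated. Intervals and floors from reads cover counting error only. Of the table's IDs 25275 were named, and names, coordinates and promoters came from RefSeq (GRCm38.p6) and transcript lengths from GENCODE M21.

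The 46 pathway lists, 5 marker lists, the compared groups and the tests were chosen with earlier results of these data known. Named genes were Actr3 and Ift88, the 20 highest and 20 lowest changes among called genes that averaged 100 or more in the higher group and did not overlap, and per list up to 4 called members with the smallest adjusted p. Others, among them those given as mean ± SD, were chosen after their values were seen, for their role in a pathway. Alternatives were other pseudocounts, filters, scalings and fits, count models fitted to the recovered reads with edgeR 4.0.16 and with DESeq2 1.42.0, removal of chromosome medians, a replicate block, leaving out each library and, added after seeing the data, removal of a length trend. A few members of the lists are not reported here by name.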

Additional observations from a re-analysis of the deposited data

How the results depend on the processing

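The number of called genes stayed within 1.5 times of 9364 in all 19 alternatives. It was 8817 to 9055 when 1 library was left out, and calls of at least 2-fold were then 1163 to 1278. With a filter on a mean of at least 50, 746 calls of at least 2-fold were left, 208 higher and 538 lower, as fewer genes of low level were tested. Of 233 named genes 223 kept their direction and side of the threshold in every alternative that gave them a value. Under the filter on a mean of at least 50 this left out 8 of the 233, Gli2 among them, and in the 2 length alternatives 1. Epcam went from 0.16 to -0.0098 without the length trend and -0.016 without chromosome medians too (limma adjusted p 0.88 and 0.803), and Tfcp2l1 to 0.095 and 0.28 (limma adjusted p 0.102 and 9.8e-05); the cause was not tested. The calls of Ift81, Ddit3 and Scnn1a were lost, and those of Ift88, Pax8, Gata3, Cd68 and Cubn gained, in at least 1 alternative.

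With the replicate number as a block 9421 genes were called, 1210 of them at least 2-fold. Same-numbered libraries did not deviate together (correlations -0.03, 0.11 and -0.02), so the numbers were not taken to pair the samples. Genes of a few reads per library, such as Gli1 and the near-silent group, are limited by counting error, and 3 libraries per group of 1 line each cannot separate the added Ift88 edit from other differences between the lines.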
